A study of Mus musculus with 4 samples.

Results

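Choroid plexus receptors, channels and secreted proteins were followed through single-cell libraries of the mouse brain. The 10 genes were Ttr, Folr1, Prlr, Htr2c, Kl, Enpp2, Kcnj13, Clic6, Otx2 and Steap1, taken by symbol from the 31053 genes of the count matrices, and all 10 were found. They had been named as genes of choroid plexus cells with results of these libraries known, so their high level in that class is a description and was not tested. The brains were those of 4 C57BL/6J males aged 90 days after birth, and each gave 1 droplet library of 3′ tags. Both groups were digested with enzymes. In the group without inhibitors (2 mice) the buffers held none, and in the group with inhibitors (2 mice) actinomycin D and triptolide, which block transcription, were in the perfusion, dissection and digestion buffers, and anisomycin, which blocks translation, was in the dissection and digestion buffers. The comparison asked how far dissociation without the inhibitors changed transcripts. The labels put all 4 libraries in the same batch. With n = 2 mice per group, p-values measure the spread between single animals.

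The choroid plexus is a folded sheet of epithelial cells around a leaky capillary core in the brain ventricles. Its epithelium makes cerebrospinal fluid by moving salt and water, closes the barrier between blood and fluid with tight junctions, and secretes carrier proteins and enzymes into the fluid. Ttr encodes transthyretin, the carrier of thyroxine and retinol-binding protein that this epithelium secretes in bulk. Enpp2 encodes autotaxin, a secreted enzyme that makes lysophosphatidic acid. Folr1 is the folate receptor that carries folate into the fluid, Prlr is the prolactin receptor, and Htr2c is a G-protein-coupled serotonin receptor. Kl encodes klotho, a co-receptor for fibroblast growth factor 23 that is also shed. Kcnj13 is an inwardly rectifying potassium channel of the apical membrane, and Clic6 belongs to the chloride intracellular channel family. Steap1 is a membrane protein of the metalloreductase family, and Otx2 is a homeodomain transcription factor needed for choroid plexus development.

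Promoters of 4 members are shown because these genes separated in the comparison of the groups given further on: Kcnj13 and Steap1 stayed above 0 without inhibitors under each of 20 fits, whereas Htr2c and Kl changed sign among the fits. RefSeq promoters (GRCm38.p6) were matched for 6 of the 10 members, with 11 start sites. Each line gives the 250 bases before a start, 5′ to 3′ on the gene's strand. Capitals mark matches to a TATA box, spelled TATAAA, and to a CCAAT box, which reads ATTGG where it lies on the other strand. The windows are chr1:87394730-87394979 on the minus strand for Kcnj13, chr5:5749318-5749567 on the minus strand for Steap1, chrX:146962263-146962512 on the plus strand for Htr2c and chr5:150952357-150952606 on the plus strand for Kl.
Kcnj13: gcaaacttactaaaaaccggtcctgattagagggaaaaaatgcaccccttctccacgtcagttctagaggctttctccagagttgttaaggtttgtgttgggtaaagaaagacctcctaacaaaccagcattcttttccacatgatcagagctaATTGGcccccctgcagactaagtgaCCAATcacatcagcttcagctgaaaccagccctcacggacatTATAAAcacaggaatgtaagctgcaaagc
Steap1: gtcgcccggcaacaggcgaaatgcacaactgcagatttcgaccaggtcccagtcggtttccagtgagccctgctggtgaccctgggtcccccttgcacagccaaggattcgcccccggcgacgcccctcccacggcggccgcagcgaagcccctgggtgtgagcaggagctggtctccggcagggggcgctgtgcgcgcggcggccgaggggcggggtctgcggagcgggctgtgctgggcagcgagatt
Htr2c: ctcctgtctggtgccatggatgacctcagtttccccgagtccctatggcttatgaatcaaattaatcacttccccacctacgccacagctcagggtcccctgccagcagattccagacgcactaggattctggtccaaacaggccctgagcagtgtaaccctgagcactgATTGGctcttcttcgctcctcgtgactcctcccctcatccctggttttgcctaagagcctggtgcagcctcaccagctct
Kl: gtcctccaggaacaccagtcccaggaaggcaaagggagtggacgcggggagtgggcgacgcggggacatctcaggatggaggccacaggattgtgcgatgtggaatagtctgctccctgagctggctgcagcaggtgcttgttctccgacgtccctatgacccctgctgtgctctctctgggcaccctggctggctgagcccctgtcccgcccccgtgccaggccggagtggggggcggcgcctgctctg
The Kcnj13 window held TATAAA at -29, CCAAT at -71 and its complement at -96, and the Htr2c window held the complement of CCAAT at -80. The windows of Steap1 and Kl held neither set of letters, and their GC contents were 70.8% and 66.8% against 45.2% for Kcnj13 and 55.6% for Htr2c. Searched on both strands, TATAAA was in 2 of the 11 windows and in 12.4% of all 32851 promoters of this length, and CCAAT was in 4 of 11 and in 33.8%. The letters TAATCC, a core bound by Otx-type homeodomains, were in 1 of the 11 windows, before a start of Otx2 itself, and in 6.25% of all promoters. The 3 motifs share no letters in any printed window. A match is a description of these letters and no evidence of binding. The Kcnj13 gene lies inside Gigyf2 on the opposite strand, Folr1 overlaps Anapc15 and Enpp2 overlaps a noncoding RNA on opposite strands, and Prlr, Clic6 and Otx2 overlap annotated models on their own strand (Gm21973, 2410124H12Rik and Gm49154), with which their reads may be shared.

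Of 12487 deposited barcodes, 9861 were kept as cells, and clustering with the members left out of the matrix gave 617 choroid plexus-like cells (152 and 192 without inhibitors, 153 and 120 with). The deposited libraries held 5134359 to 7529804 unique molecular identifiers (UMIs), each standing for 1 captured RNA molecule, and 67 barcode sequences occurred in more than 1 library (44 among kept cells). The choroid plexus-like class was 3 clusters. The middle cluster (338 cells, median 2482.5 UMIs) and a deep cluster (35 cells, median 12819 UMIs) passed 12 of the 12 choroid plexus markers fixed for naming, all different from the members, while a shallow cluster (244 cells, median 1327.5 UMIs) passed 5 of them beside 3 ependymal markers. Results are therefore also given without the shallow cluster. Choroid plexus-like cells were 6.89% and 6.97% of kept cells without inhibitors and 7.32% and 4.27% with (limma on arcsine square root shares, adjusted p 0.847). Their depth differed more. Median UMIs per cell were 2790.5 and 2378 without and 1994 and 1340.5 with inhibitors, so the class held 14.0% and 12.5% of kept UMIs against 8.88% and 4.24%.

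The class held most UMIs of each member. The share of a member's UMIs in kept cells that lay in the class was 94.7% for Kl, 91.8% for Ttr, 91.5% for Htr2c, 91.4% for Clic6, 91.1% for Prlr and 89.6% for Kcnj13. It was lower for Steap1 (83.4%), Folr1 (82.2%), Enpp2 (80.1%) and Otx2 (78.1%), whose other sources are described below. By library, the shares were lowest in inhibitor replicate 2, where the class was smallest in UMIs, at 54.3% for Enpp2 and 56.1% for Folr1.

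Within the class, 7 of the 10 members were called higher without inhibitors, beside 4.35% of the 4647 genes tested. The 7 were Ttr, Folr1, Prlr, Htr2c, Enpp2, Kcnj13 and Steap1. The calls came from edgeR's quasi-likelihood test on UMI sums per mouse, with a call at a Benjamini-Hochberg adjusted p under 0.05 over all genes tested and an absolute log2 fold change over 0.58. No member was called lower, beside 0.882% of genes. Levels below are UMIs per 1000000 UMIs of the class (CPM), and fold changes come from the fit, in which trimmed mean scaling (TMM) takes account of the UMIs that Ttr holds. The median log2 fold change of all genes tested was -0.00, and that of a list is set beside it further on.

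**Figure D1:**
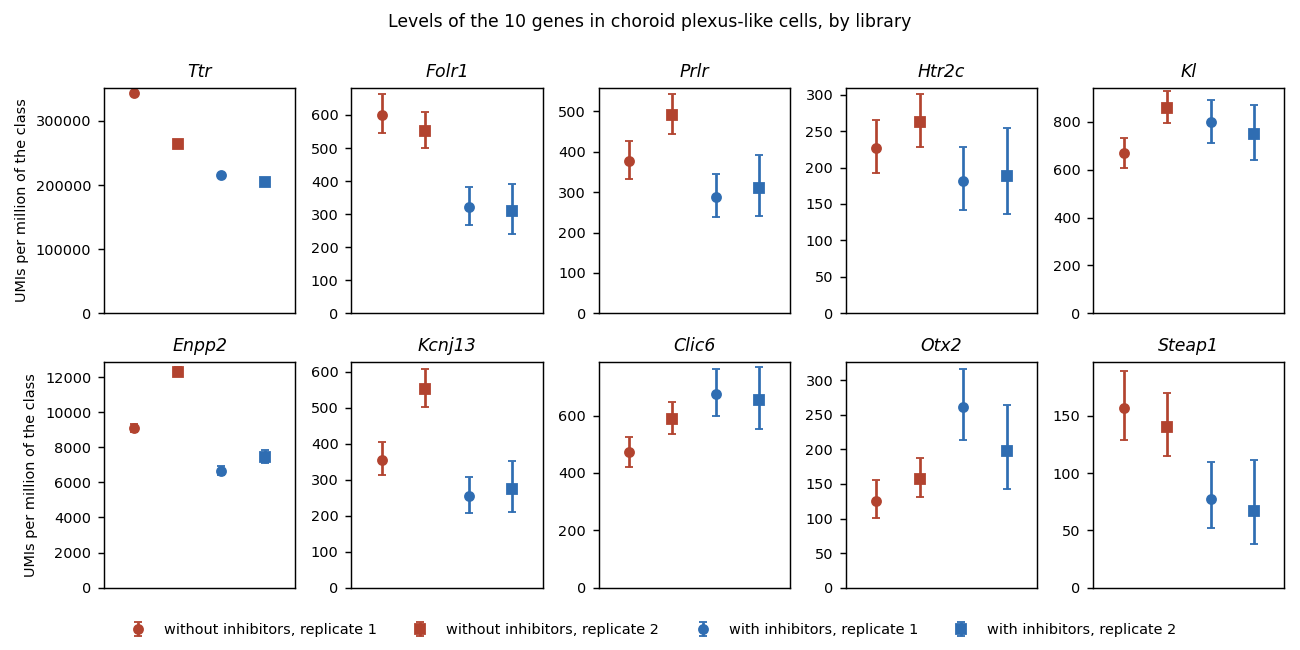
Level of each of the 10 members in choroid plexus-like cells, in CPM of the class on the y axis, with 1 point per library and bars for the 95% Poisson interval of counting error; the scale differs between panels. The points of Folr1, Steap1 and Enpp2 without inhibitors lie above both libraries with inhibitors, those of Otx2 and Clic6 lie below, and those of Kl overlap.

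Among secreted proteins, Ttr took 34.4% and 26.4% of the class's UMIs without inhibitors and 21.6% and 20.5% with. Both libraries without inhibitors were higher and the groups did not overlap, and the fitted log2 difference was 0.72 (SE 0.147, adjusted p 0.0023). Per cell the range was wide: the median cell gave Ttr 34.3% and 20.8% of its UMIs without inhibitors and 16.6% and 13.6% with, and single cells ran from 1.15% to 65.2%. Enpp2 was at 9107 and 12316 CPM without and 6662 and 7469 CPM with inhibitors. These groups did not overlap either, and the fitted log2 difference was 0.77 (SE 0.0926, adjusted p 6.13e-06). Levels by cluster, given further on, did not keep this order in each cluster for either gene.

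Of the receptors, Folr1 was at 601 and 553 CPM without and 321 and 309.5 CPM with inhibitors. The libraries of a group lay close together and the groups were far apart, by 1.04 on the log2 scale of the fit (SE 0.131, adjusted p 1.22e-05). Folr1 is on the study's list of activation genes, which was drawn up from these libraries, so its direction here is not independent evidence. Prlr was at 378 and 492 CPM without and 288 and 309.5 CPM with (log2 fold change 0.72, SE 0.132, adjusted p 0.000804). Htr2c, with 42 to 202 UMIs per library, was at 227 and 263 CPM without and 181 and 188 CPM with, which the fit put at 0.58 on the log2 scale (SE 0.160, adjusted p 0.0225), barely past the fold limit. Both receptors were higher without inhibitors with no overlap, but these calls depended on which cells were summed. Kl was at 668 and 859.5 CPM without and 798 and 749 CPM with. These levels overlapped, although with the members left out of the total they were 1037 and 1194 without and 1031 and 954 with, and the fitted log2 difference, 0.14 (SE 0.0997, adjusted p 0.455), did not pass.

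The channels went different ways. Kcnj13 was at 356 and 553 CPM without and 254 and 274 CPM with inhibitors, which did not overlap (log2 fold change 0.97, SE 0.154, adjusted p 0.000177). Clic6 was at 472 and 589 CPM without and 676 and 655 CPM with, and its log2 difference, -0.16 (SE 0.104, adjusted p 0.42), was not called. Otx2, the transcription factor, was at 126 and 157 CPM without and 261 and 197 CPM with. It was lower in both libraries without inhibitors, with an adjusted p of 0.0466, but its log2 difference of -0.56 (SE 0.175) stayed inside the fold limit. Steap1, counted at only 15 to 108 UMIs per library, was at 157 and 140.4 CPM without and 77.1 and 67.3 CPM with. The groups did not overlap, and the log2 difference was the largest of the 10 in this fit, 1.18 (SE 0.231, adjusted p 0.00151). For scale, on TMM-scaled levels 25.5% of all genes tested had both libraries without inhibitors above both with, and 25.0% had both below.

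**Figure D2:**
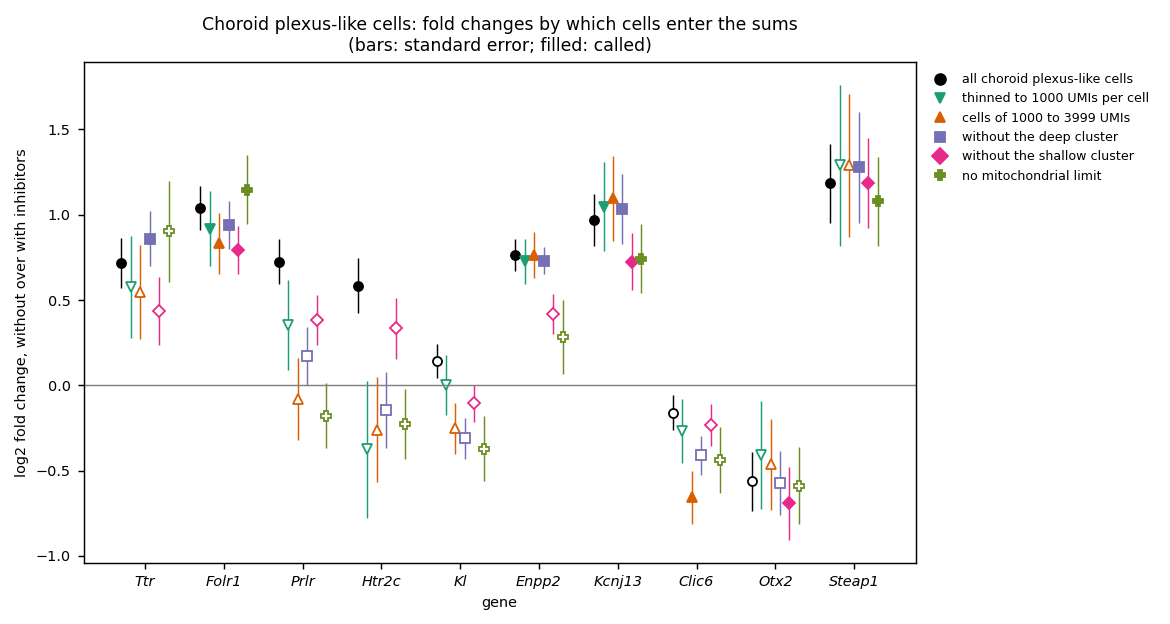
Log2 fold change without over with inhibitors of each member in choroid plexus-like cells (y axis, genes on the x axis) under 6 ways of choosing or thinning the cells, with bars of 1 SE and filled points for members called. Folr1 and Kcnj13 are filled under each setting, Clic6 and Otx2 lie below 0, and Prlr, Htr2c and Kl lie on both sides of 0.

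The calls were refitted under other choices of cells, genes and libraries, 20 fits in all. Folr1 (log2 fold change 0.79 to 1.34) and Kcnj13 (0.72 to 1.46) were called higher in all 20. Steap1 was above 0 in all 20 (0.92 to 1.75) and called in 16, and Enpp2 was above 0 in all 20 (0.28 to 0.90) and called in 17. Ttr lay between 0.42 and 1.45 and was called in 12. Prlr ran from -0.39 to 0.82 and was called in 12, Htr2c from -0.89 to 0.61 with 5 calls, and Kl from -0.37 to 0.24 with none. Clic6 (-0.66 to -0.09) and Otx2 (-0.71 to -0.32) were below 0 in all 20, and each was called lower in 2. With 1 mouse left out, 6 to 7 members were called. Ttr was not called without no-inhibitor replicate 1 (0.42), Htr2c was not called without no-inhibitor replicate 2 or without either mouse of the inhibitor group (0.54 to 0.61), and Otx2 was called lower without inhibitor replicate 2 (-0.71).

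Depth was the first of these choices. In choroid plexus-like cells, 8 of the 10 members had a mean level over 1.5 times as high in the deepest as in the shallowest cells. The mean over libraries went from 68.3 CPM in cells under 1000 UMIs to 545 CPM in cells of 4000 UMIs or more for Prlr, a ratio of 7.97, and from 1967 to 13653 CPM for Enpp2, a ratio of 6.94. Ratios were 3.81 for Kl, 3.14 for Folr1, 3.08 for Ttr, 2.78 for Kcnj13, 2.26 for Htr2c and 1.51 for Steap1. Clic6 (1.21) and Otx2 (0.88) were nearly level. The shallowest band held few UMIs of the rarer members, 7 of Prlr and 7 of Steap1 over the libraries together, so these ratios are rough. In inhibitor replicate 1, Folr1 and Steap1 went the other way, at ratios of 0.73 and 0.39. Inhibitor replicate 2 had only 6 cells in the deepest band. The clusters of the class also differed in depth, so a trend with depth was not separated from the mix of clusters.

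**Figure D3:**
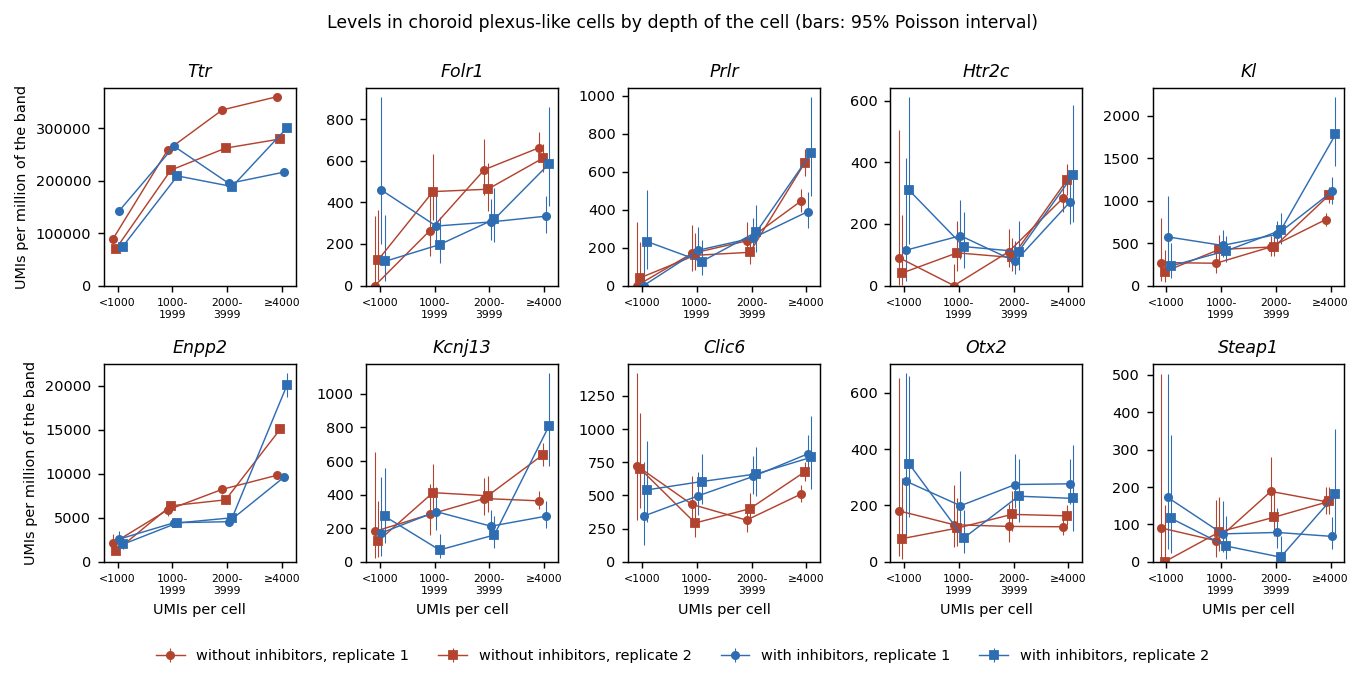
Level of each member, in CPM, on the y axis in choroid plexus-like cells grouped on the x axis by total UMIs per cell (4 bands with bounds at 1000, 2000 and 4000), 1 line per library. Prlr, Htr2c, Kl and Enpp2 are highest in the deepest cells in all 4 libraries, and the means of Otx2 and Clic6 are nearly level.

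The groups differed in how many deep cells they had. Cells of 4000 UMIs or more numbered 55 and 59 without inhibitors and 30 and 6 with, and held 71.9% and 68.5% of the class's UMIs against 44.0% and 19.9%. The part of this difference in the fold changes above was not separated by the sums alone, so levels were compared at like depth. In cells of 2000 UMIs or more but under 4000, Ttr took 33.5% and 26.2% of UMIs without and 19.5% and 18.9% with inhibitors, and Folr1 was at 557 and 463 CPM without and 306 and 319 CPM with. In the same cells Enpp2 was at 8240 and 7043 CPM without and 4557 and 5003 CPM with, and Kcnj13 at 377 and 393 CPM without and 212 and 159 CPM with. These 4 genes, and Steap1 (188 and 119 CPM against 78.4 and 12.3 CPM), had the direction of the whole class with no overlap in this band. In the other bands this held less often: of the 4 bands, Folr1 and Enpp2 were higher without inhibitors with no overlap in 2, and Ttr, Kcnj13 and Steap1 in this 1. The share of all genes that separated in a single band was not counted, so these counts are a description only. In the whole class, on TMM-scaled levels, 25.5% of genes were higher without inhibitors with no overlap and 25.0% were lower. In cells of 1000 UMIs or more but under 2000, Ttr took 25.8% and 22.0% of UMIs without and 26.6% and 20.9% with, and in cells of 4000 UMIs or more Enpp2 was at 9841 and 15103 CPM without and 9591 and 20077 CPM with, so these groups overlapped. In cells under 1000 UMIs the means of Ttr and Enpp2 were higher with inhibitors, Enpp2 at 2277 against 1657 CPM. Kl (455 and 456 CPM without, 604 and 650 CPM with) and Prlr (235 and 175 CPM without, 251 and 282 CPM with) had the opposite order in the band from 2000, higher with inhibitors. With the members left out of the total of this band, the groups overlapped for Prlr (360 and 241 CPM without, 315 and 351 CPM with). Kl still did not overlap (696 and 626 CPM without, 757 and 809 CPM with). Otx2 and Clic6 were higher with inhibitors there too, Clic6 at 314 and 399.9 CPM without against 643 and 662 CPM with.

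Like depth was also fitted. With every cell of 1000 UMIs or more thinned to 1000 UMIs, Folr1 (0.92, adjusted p 0.00562), Kcnj13 (1.05, adjusted p 0.00758) and Enpp2 (0.73, adjusted p 0.000194) were called higher, beside 3.9% of 1590 genes. Ttr had a log2 fold change of 0.58 (SE 0.299), Steap1 1.29 (SE 0.475), Prlr 0.35 (SE 0.262), Kl 0.00 (SE 0.174) and Htr2c -0.38 (SE 0.401), none called. In cells of 1000 UMIs or more but under 4000, left unthinned, the same 3 genes were called higher, beside 2.12% of genes, and Clic6 was called lower (-0.66, SE 0.156, adjusted p 0.0329), beside 0.231%. In that fit Prlr was at -0.08 (SE 0.239) and Kl at -0.25 (SE 0.151). The thinning left out 14 and 30 cells without inhibitors and 22 and 33 with as too shallow.

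The share of cells with at least 1 UMI of a member, after thinning to 1000 UMIs, showed how patchily the rarer members were caught. Ttr was found in 100% of choroid plexus-like cells of each library, and Enpp2 in 81.5% to 88.5%. Folr1 was found in 35.5% and 34.6% of cells without inhibitors and 23.7% and 24.1% with, and Steap1 in 12.3% and 8.02% without and 7.63% and 1.15% with. Neither pair of groups overlapped, by a narrow margin for Steap1, and these shares were not tested. How many of all genes separated in such shares was not counted, so the overlaps given here are a description only. Kl was found in 34.8% and 38.9% without and 43.5% and 44.8% with, and Clic6 in 37.0% and 32.7% without and 45.8% and 39.1% with, in the opposite order. Of the 1000 UMIs, Ttr took a mean of 321 and 252 without and 223 and 208 with inhibitors. Fewer were thus left for other genes without inhibitors, which these shares do not take into account. Kcnj13 was found in 21.0% and 29.6% without and 19.8% and 10.3% with, and Htr2c in 9.42% and 6.17% without and 9.92% and 11.5% with, each with no overlap but a narrow gap. Prlr (14.9% to 22.2%) overlapped between the groups, as did the unthinned shares of Enpp2 (83.3% to 92.8%) and Kl (47.5% to 62.1%). In microglia-like cells at the same 1000 UMIs, a type that should lack these genes, the shares were at most 1.07% for the 8 members other than Ttr and Enpp2, and 5.04% to 10.0% for Enpp2. Ttr was found there in 85.2% to 96.2% of cells, so a Ttr UMI in a cell did not mark the choroid plexus.

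The limit on mitochondrial UMIs was the other choice that moved members. Cells over 20% were left out, and in a clustering with no such limit 76 of 693 choroid plexus-like cells lay over it: 12 and 22 without inhibitors and 16 and 26 with. These cells were not shallow, with a median of 3744 UMIs. The level of several members climbed with the mitochondrial share of a cell. That share also differed between the 3 clusters of the class with the limit applied. Its median was 2.73% in the shallow, 7.02% in the middle and 13.6% in the deep cluster. A trend with the mitochondrial share was thus not separated from the mix of clusters. Over the bands up to 5%, over 5 to 10%, over 10 to 20% and over 20%, Prlr went from 111 to 315, 842 and 1648 CPM, Htr2c from 76.7 to 179, 468 and 811 CPM, and Kl from 327 to 626, 1488 and 2555 CPM. The 2 receptors and klotho thus had their highest levels in the cells that the limit removed. These values pool the 4 libraries. Enpp2 went from 3890 to 8750, 18176 and 22153 CPM, but in no-inhibitor replicate 2 it fell past the limit, from 21562 to 16874 CPM. Clic6 had the same pooled order, from 472 to 507, 763 and 1008 CPM. In both libraries without inhibitors, however, Clic6 fell past the limit, from 723 to 633 CPM and from 802 to 554 CPM. The other 5 did not follow in the pooled cells. Ttr was 31.7% of UMIs at over 5 to 10% and 14.7% over the limit. Folr1, Kcnj13 and Steap1 were highest at over 10 to 20% (709.8, 600.2 and 178 CPM), though not in every library. Kcnj13 was highest over the limit in replicate 1 of each group, at 588 CPM without and 594 CPM with inhibitors. Otx2 lay between 162 and 229.9 CPM in each pooled band.

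**Figure D4:**
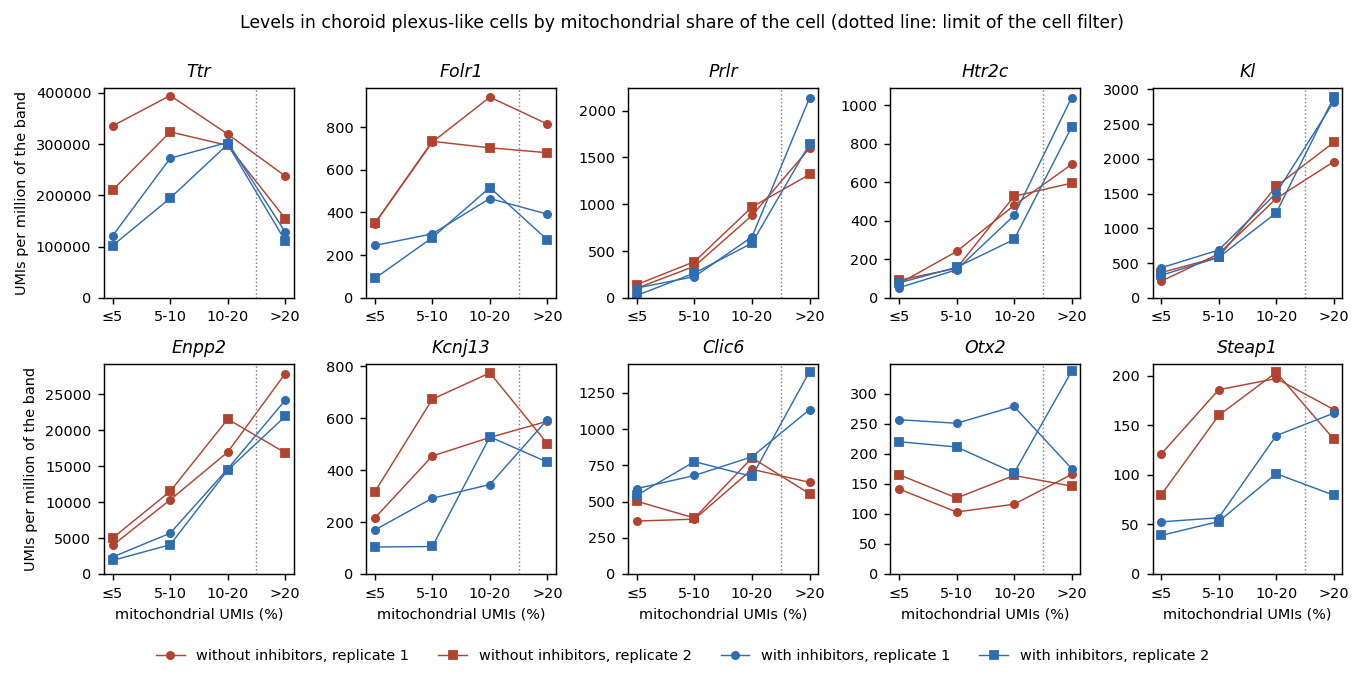
Level of each member, in CPM, on the y axis in choroid plexus-like cells of a clustering with no mitochondrial limit, grouped on the x axis by the percent of a cell's UMIs from mitochondrial genes (up to 5, over 5 to 10, over 10 to 20, over 20), 1 line per library, with a dotted line at the 20% limit. Prlr, Htr2c and Kl climb past the limit in each library, while Ttr is lower past the limit than at over 10 to 20% in each library.

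With those cells included, 3 members were called higher, beside 1.49% of 5377 genes: Folr1 (1.15, adjusted p 2.07e-05), Steap1 (1.08, adjusted p 0.00471) and Kcnj13 (0.74, adjusted p 0.0219). Enpp2 was then at 10774 and 12820 CPM without and 9390 and 13320 CPM with inhibitors, and its log2 fold change was 0.28 (SE 0.217, adjusted p 0.65). The groups overlapped, as they did for Prlr, at 486 and 583 CPM without and 575 and 848 CPM with. Prlr had a log2 fold change of -0.18 (SE 0.193), Htr2c -0.23 (SE 0.204) and Kl -0.37 (SE 0.190), all on the other side of 0 and none called. Ttr was at 0.90 (SE 0.297, adjusted p 0.0908). The calls of Ttr, Prlr, Htr2c and Enpp2 were thus made with the limit and not without it, and whether cells over it should count as choroid plexus cells cannot be read from these counts.

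Without the shallow cluster, 3 of the 7 members were still called higher, Folr1 (0.79), Kcnj13 (0.72) and Steap1 (1.19), beside 2.56% of genes. Otx2, not called in the whole class, was called lower (-0.69, adjusted p 0.0449), beside 0.836%. Enpp2 (0.42, adjusted p 0.025) was inside the fold limit, and Ttr was at 0.44 (adjusted p 0.237), Prlr at 0.38 (adjusted p 0.127) and Htr2c at 0.33 (adjusted p 0.325). Within the clusters, the shallow cells gave Ttr 8.64% of their UMIs, the middle ones 33.1% and the deep ones 30.8%. Prlr was at 64.2, 268 and 1029 CPM and Kl at 243, 600.5 and 1707 CPM in the same order, so these 2 genes separated the deep from the middle cells where Ttr did not. Otx2 went from 225 to 143 and 194 CPM. By library, Ttr took 10.9% and 7.18% of UMIs without and 8.57% and 8.50% with inhibitors in the shallow cells. In the middle cells Ttr took 40.7% and 31.1% without and 26.5% and 25.6% with. In the deep cells the order turned, at 31.5% and 29.3% without and 33.7% and 34.2% with. The deep cluster had 13 and 15 cells without inhibitors but 5 and 2 with. The shallow cluster held 13.8% and 17.2% of the class's UMIs without and 31.9% and 36.3% with. Enpp2 in shallow cells was at 1175 and 1162 CPM without and 1479 and 1359 CPM with inhibitors. It was at 7091 and 9779 against 6380 and 7106 CPM in middle cells, and 18951 and 23511 against 21697 and 26933 CPM in deep cells. No cluster alone had Enpp2 higher without inhibitors with no overlap. The part of the cluster mix in the fold changes was not tested.

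Markers of other cell types were counted in the same sums. The 5 haemoglobin and erythrocyte genes together were at 429 and 532 CPM without and 154 and 265 CPM with inhibitors, 3 of the 5 higher without and Alas2 at 0. The 9 oligodendrocyte genes were at 547 and 377 CPM without and 651 and 861 CPM with, none at 0, and the 7 ependymal genes at 473 and 554 CPM without and 636 and 597 CPM with. The 8 microglial genes (177 to 287 CPM) and 9 astrocyte genes (241 to 413 CPM) overlapped between the groups. The part of the erythrocyte, oligodendrocyte and ependymal lists in the fold changes of the members was not tested.

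In the other classes, the members were first read against Ttr. It was counted in 94.2% to 99.1% of microglia-like cells, with a median of 3 to 5 UMIs per cell, and its level in the microglia-like class was 1986 to 3827 CPM. In the ependymal-like class it was 1095 to 1935 CPM and in the neuron-like class 3129 to 5478 CPM. Some high values were single cells: in no-inhibitor replicate 1, 1 cell held 88.0% of the Ttr of mural-like cells and 1 cell held 86.5% of that of neural progenitor-like cells. For each class, the UMIs of another member that would accompany its Ttr UMIs, at the ratio of that member to Ttr in choroid plexus-like cells of the same library, were set beside the UMIs counted. The resulting ratio of counted to expected carries a 95% Poisson interval, which covers counting error only.

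Over all cells outside the class, Prlr (80 counted, 76.0 expected), Htr2c (44 and 44.0), Clic6 (112 and 122) and Kcnj13 (96 and 75.4) were near the level that their ratio to Ttr gave. Kl was below it, with 89 counted and 157 expected. Folr1 (223 and 89.0), Enpp2 (4961 and 1852), Otx2 (100 and 36.9) and Steap1 (52 and 21.8) were above it, at ratios of 2.51, 2.68, 2.71 and 2.38. These 4 were the members with the lowest share of UMIs in choroid plexus-like cells. That share and this ratio rest on the same counts inside and outside the class, so neither is separate support for the other.

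**Figure D5:**
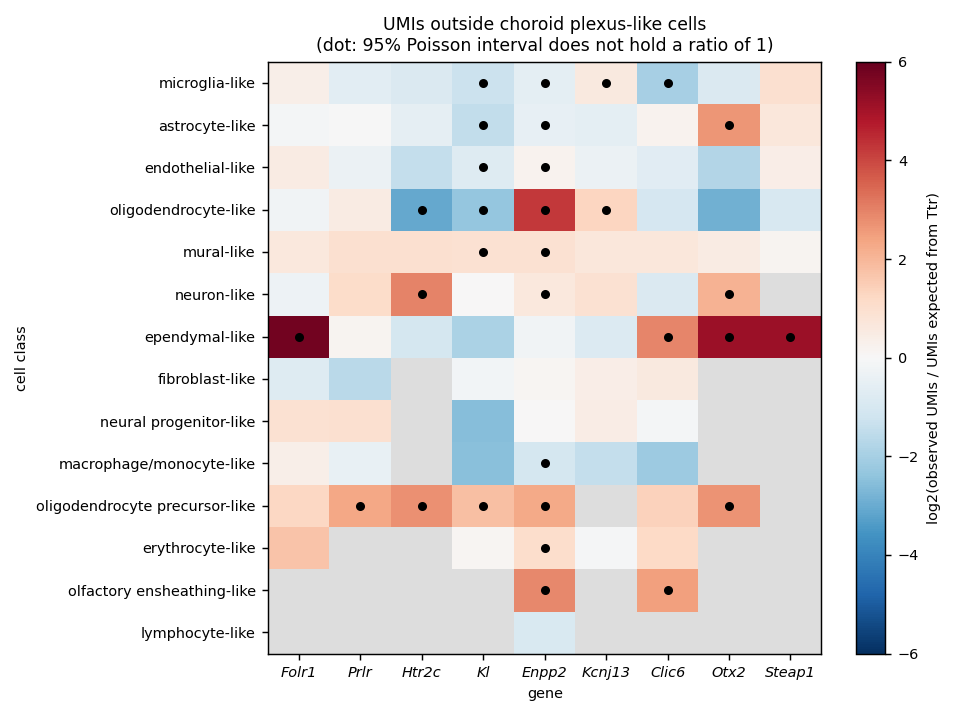
Heat map of log2 of the ratio of counted to expected UMIs for each member (all but Ttr, which sets the expectation) in each other class; a dot marks a 95% Poisson interval that leaves out a ratio of 1, a count of 0 is drawn as 0.5 UMI, and grey cells had under 1 UMI expected and under 3 counted. The brightest cells are Folr1, Otx2 and Steap1 in ependymal-like cells and Enpp2 in oligodendrocyte-like cells.

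Ependymal-like cells, the ciliated lining of the ventricles, held Folr1 at 154 and 134 CPM without and 146 and 186 CPM with inhibitors. That was 115 UMIs where 2.09 were expected, a ratio of 55.0 (interval 45.4 to 66.0), and the groups overlapped. Otx2 was at 51.3 and 52.9 CPM without and 35.5 and 19.9 CPM with, 31 UMIs against 0.88 (ratio 35.4, interval 24.0 to 50.2). Steap1 (18 against 0.52, ratio 34.8) and Clic6 (22 against 2.84, ratio 7.74, interval 4.85 to 11.7) were above their expectation as well. Thus 4 members stood above the expectation from Ttr in ependymal-like cells, while Prlr, Kl, Htr2c, Kcnj13 and Enpp2 had intervals that held 1 or too few UMIs to read. In the ependymal-like fit, Folr1 was at -0.20 on the log2 scale (SE 0.310, adjusted p 0.992).

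Oligodendrocyte-like cells held Enpp2 at 1069 and 1338 CPM without and 1143 and 1173 CPM with inhibitors. This was 3229 UMIs where 173 were expected, a ratio of 18.7 (interval 18.1 to 19.4), and the levels of the groups overlapped. Mature oligodendrocytes are a known source of autotaxin. Oligodendrocyte precursor-like cells (118 against 24.3, ratio 4.86) and olfactory ensheathing-like cells (50 against 6.83, ratio 7.32) were above the expectation too. In oligodendrocyte-like cells, the log2 fold change of Enpp2 was 0.03 (SE 0.103, adjusted p 0.978), against 0.77 in choroid plexus-like cells. The difference of these effects, tested in 1 model of both classes with the animal as a block, was 0.74 on the log2 scale (SE 0.134, adjusted p 4.16e-05), and Enpp2 was the only one of 8 members tested to be called, beside 0.478% of 7524 genes. With no mitochondrial limit the difference was 0.25 (SE 0.242, adjusted p 0.997) and was not called. The part of the cluster mix of the choroid plexus-like class in this difference was not tested.

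Smaller departures were seen elsewhere. Astrocyte-like cells held Otx2 at 12.2 and 14.2 CPM without and 24.8 and 11.8 CPM with (46 UMIs against 7.24, ratio 6.35, interval 4.65 to 8.47), with overlapping groups. Neuron-like cells held 15 UMIs of Htr2c, a receptor of many neurons, against 1.88 (ratio 7.97, interval 4.46 to 13.2), at 28.5 and 18.7 CPM without and 46.4 CPM in inhibitor replicate 2, with 0 UMIs in inhibitor replicate 1, which allows up to 25.2 CPM. In microglia-like cells, Kl (19 against 46.1, ratio 0.41, interval 0.25 to 0.64), Clic6 (9 against 36.1, ratio 0.25, interval 0.11 to 0.47) and Enpp2 (358 against 537, ratio 0.67) were below the expectation from Ttr, and Kcnj13 (33 against 21.8, ratio 1.51, interval 1.04 to 2.12) was slightly above it.

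Summed over all kept cells, as in a bulk sample, each member was higher without inhibitors on average, and fewer choroid plexus cells and less RNA per cell cannot be told apart in such a sum. Ttr was at 5.07% and 3.59% of UMIs without and 2.07% and 1.14% with, a ratio of means of 2.69, while its ratio within the class was 1.44. The class held 2.02 times as large a share of UMIs without inhibitors. Prlr was at 58.5 and 64.9 CPM without and 27.6 and 17.7 CPM with, and Kl, level within the class (ratio 0.99), was at 99.7 and 112 CPM without and 73.5 and 36.2 CPM with (ratio 1.93). Otx2, lower within the class (0.62), had a ratio of 1.20 over all cells, with 23.0 and 25.1 CPM without and 28.7 and 11.4 CPM with. Of the difference between group means, 92.4% to 101% lay in choroid plexus-like cells for the members other than Otx2 (73.0%).

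None of the 10 members was called in that sum by edgeR, beside 0.0435% of 13779 genes (6 called, 930 at an unadjusted p under 0.05). The log2 fold changes ran from 0.37 for Otx2 to 1.79 for Steap1, and Prlr (1.54, SE 0.186, adjusted p 0.0504) and Steap1 (adjusted p 0.0629) came nearest. DESeq2 on the same sums called 40 genes, 0.261% of those tested, and 6 of them were members: Kcnj13, Htr2c, Steap1, Folr1, Prlr and Enpp2. In all kept cells outside the class, edgeR called 7 of 13649 genes (0.0513%) and DESeq2 21, with 631 at an unadjusted p under 0.05 and no member among the 7. There the log2 fold change of Ttr was 0.45 (SE 0.283), that of Folr1 0.13 (SE 0.221) and that of Enpp2 0.07 (SE 0.119). No member was called in any of the 8 other classes fitted, where 95 calls were made among 44464 tests (0.214%). Only 1 to 3 of the 10 members passed the count filter in each of these classes, so most members were not tested there.

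Other choroid plexus genes were read by lists that hold no member, chosen like the members with earlier results known. Several of them are also markers used to name the class, among them Aqp1, Kcne2, Igfbp2 and 1500015O10Rik. Beside the counts of these lists, 4.35% of all genes tested in the class were called higher and 0.882% lower. Of the 14 genes of salt and water transport, 14 were tested and 6 were called higher without inhibitors, among them Kcne2, Atp1b1, Car14, Trpv4 and Aqp1, with none lower and a median log2 fold change of 0.61. Aqp1, the water channel of the apical membrane, was at 157 and 163 CPM on TMM-scaled library sizes without and 73.3 and 49.3 CPM with inhibitors (log2 fold change 1.31, SE 0.234, adjusted p 0.000688), and Trpv4, a calcium-permeable channel, was higher by 1.04 on the log2 scale (SE 0.307, adjusted p 0.0362). Of 12 carriers of nutrients, drugs and hormones, 7 were tested and 3 called higher (Slc31a1, Slco1c1 and Slc13a4, median 0.74). Slc13a4, a sulfate transporter, had a log2 fold change of 1.42 (SE 0.281) and Slco1c1, a thyroxine transporter, 1.16 (SE 0.219).

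Of 13 secreted proteins, 12 were tested and 5 called higher (Igfbp2, Wfdc2, Clu, 1500015O10Rik and Trf, median 0.61). Trf, transferrin, was at 489 and 637 CPM without and 264 and 332 CPM with on the same scale (log2 fold change 0.97, SE 0.147), and 1500015O10Rik, which the study also chose as an activation gene on these libraries and which marks this epithelium, had 0.94 (SE 0.128). Of 13 junction, keratin and other epithelial genes, 11 were tested and 3 called higher (Spint2, Krt18 and Cldn1, median 0.50), with Cldn1, a claudin of tight junctions, at 1.38 (SE 0.365) and Krt18, a keratin, at 0.90 (SE 0.169). None of the 4 lists had a gene called lower. When cells were thinned to 1000 UMIs, the calls were 0 of 12 tested for transport, 1 of 3 for carriers, 5 of 9 for secreted proteins and 1 of 8 for junctions. Of all genes tested in that fit, 3.9% were called higher. The median log2 fold change of those 12 transport genes was 0.45. In cells of 1000 UMIs or more but under 4000 the median was 0.05, with 1 of 12 called, beside 2.12% of all genes tested. The study's activation genes were counted without Folr1 and 1500015O10Rik, which were both called higher in this class. Of 32 others, 6 were tested here. Of these, 1, the histone gene Hist1h1c, was called lower and none was called higher.

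The profile of the members over the 15 named classes had near neighbours. With CPM on a log2 scale, the genes outside the members whose profile was most like the members' mean profile were 2900040C04Rik (Pearson r 0.982), Tc2n (0.979), Cldn2 (0.968), Tmem72 (0.968) and Slc4a5 (0.965), out of 11884 genes compared over 15 classes that share libraries and free RNA. Cldn2 encodes a claudin and Slc4a5 a sodium bicarbonate cotransporter. Cldn2, Tmem72 and Slc4a5 were also markers used to name the choroid plexus-like class, and they stayed in the clustering. Their place here is thus not independent of how the class was made. Among the members themselves, Prlr (0.970) and Kl (0.964) lay nearest their mean profile, and Folr1 (0.853) and Enpp2 (0.809) farthest, the genes also counted in ependymal-like and oligodendrocyte-like cells.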

How the data were processed

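Whole brains of 4 mice were measured as 4 droplet libraries (10x 3′ v2). The authors deposited UMI counts per gene and barcode for each library; per the labels and the submitters' processing notes they were made with bcl2fastq and Cell Ranger 3.0.0 on mm10 (GRCm38), and Seurat is named. Depth was 5134359 to 7529804 UMIs per library over deposited barcodes, and intervals from counts cover counting error only.

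Barcodes with at least 400 genes and at most 20% mitochondrial UMIs were kept (10067), and 206 doublets (2.05%) were removed by similarity to simulated doublets. Cells were scaled to 10000, reduced to 30 principal components of 2000 variable genes and clustered (Leiden, resolution 1, leidenalg 0.10.2) without the members and without activation genes, giving 30 clusters and 15 named classes (72 cells unnamed). A cluster was named for the list with most markers passing a log2 fold of 1 in 10% of cells, at least 3. Naming by count and not by share of a list was set with the clusters in view: by share, the shallow choroid plexus-like cluster would have been named ependymal-like.

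UMIs were summed per mouse and class and tested with edgeR 4.0.16 (filterByExpr, TMM, robust glmQLFit and glmQLFTest, log2 fold change coded as without over with inhibitors); SE is the absolute log2 fold change over the square root of F. Class shares were tested with limma 3.58.1, and DESeq2 1.42.0 was an alternative, with R 4.3.3. Classes with at least 20 cells in every mouse were fitted. The code was tested on simulated counts with known changes. Alternatives were scaling, filters, thinning, depth bands, clustering resolution, doublets and left-out mice; those leaving out a cluster or the mitochondrial limit were chosen after seeing the data.

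All 10 members are named in each class, other choroid plexus genes by count, and by name as called genes (1 is not reported here) and, with values, as the 2 called genes with the largest change in each list. The similar-profile genes are the 5 highest in Pearson correlation with the members' mean profile of log2(CPM + 10). The members, markers and lists were chosen with earlier results of these data known. Replicates of a group differed beyond sampling noise (chi-square per degree of freedom 6.32 and 4.88). Promoters were read from a RefSeq table, with the bases after the start left out; it was matched for 6 members, and the other 4 have none shown.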

Additional observations from a re-analysis of the deposited data

Results flagged for a closer look

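The effect of the inhibitors on Enpp2 differed between 2 classes that both contain it: the log2 fold change was larger by 0.745 in choroid plexus-like than in oligodendrocyte-like cells (edgeR with the animal as a block, SE 0.134, adjusted p 4.16e-05 over 7524 genes). In oligodendrocyte-like cells the levels of the groups overlapped, and with no mitochondrial limit the difference was 0.249 and was not called. The cluster mix of the choroid plexus-like class also differed between the groups, and its part in the difference was not tested.

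Choroid plexus RNA also lay in barcodes that the filters removed. Of the barcodes under the minimum of 400 genes, 111 had over 10% of their UMIs from Ttr, 31 and 25 in the libraries without inhibitors and 30 and 25 in those with. Ttr was 1.69% and 1.10% of the UMIs of all such barcodes without inhibitors and 2.55% and 1.88% with. The order of the groups in this percent was thus the opposite of that in kept cells. The number of Ttr UMIs in these barcodes was not: it was 10910 and 10671 without and 8429 and 10029 with inhibitors.

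Another 76 barcodes clustered with the choroid plexus-like cells but were over the mitochondrial limit, 12 and 22 without and 16 and 26 with inhibitors. With them in, cells of 4000 UMIs or more held 72.1% and 67.6% of the class's UMIs without and 47.9% and 45.4% with inhibitors, against 44.0% and 19.9% with inhibitors when the limit was applied. Inhibitor replicate 2 gained most.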

How the results depend on the processing

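In choroid plexus-like cells, 243 of 4647 genes tested and 7 members were called. Members called numbered 4 in cells of 1000 UMIs or more but under 4000, 3 with cells thinned to 1000 UMIs, 3 when these were also without the deep cluster, 4 without the shallow cluster, 3 with no mitochondrial limit and 3 with that and thinning. Genes called there numbered 51, 75, 57, 134, 87 and 67 in the same order, 108 with stricter filters on genes and mitochondrial UMIs and 123 by DESeq2. Genes tested numbered 2167 in cells of 1000 UMIs or more but under 4000 and 1590 with cells thinned. They numbered 3948 without the shallow cluster and 5377 with no mitochondrial limit. Leaving out 1 mouse gave 167 to 259 genes and 6 to 7 members. Over all kept cells (6 genes, no member), the counts were 40 genes and 6 members by DESeq2, 171 and 9 with no filter on low counts, and 0 to 73 genes and 0 to 5 members without 1 mouse; 1 member was called with library sizes that left out the members and 2 with doublets kept. Outside the class (7 genes), 21 were called by DESeq2, 64 with no filter and 1 to 65 without 1 mouse. Over the other classes (95), 42 were called by DESeq2 and 111 to 199 without 1 mouse. The difference of effects between choroid plexus-like and oligodendrocyte-like cells (36 genes) gave 10 with no filter and 1 with no mitochondrial limit. The number of genes tested differed between settings. Where it is not given in this section, a count of members called is a description only.

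Some members turned direction. With no mitochondrial limit, Prlr was at -0.18, Htr2c at -0.23 and Kl at -0.37; with thinning added they were at -0.39, -0.45 and -0.27. In cells of 1000 UMIs or more but under 4000 they were at -0.0798, -0.26 and -0.25, and thinned without the deep cluster at -0.17, -0.89 and -0.32. Htr2c was also at -0.38 when thinned and -0.14 without the deep cluster, and Kl at -0.31 without the deep cluster, -0.11 without the shallow one and -0.32 with stricter filters. Scaled without the members, the log2 ratio of Otx2 between the deepest and shallowest cells was 0.17. The share of choroid plexus-like cells was 1.13 percentage points higher without inhibitors, and -0.396 to 2.66 when 1 mouse was left out, the lowest without inhibitor replicate 2. Apart from the sets of cells summed, the cause was not tested.

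The labels do not say that replicate numbers pair the mice, and the deviations of same-numbered mice from their group means correlated at 0.018 in choroid plexus-like cells and 0.0677 in all kept cells. Olfactory ensheathing-like cells, however, came only from replicate 1 of each group (29 and 32 cells). With the replicate block, 225 genes and 6 members were called in choroid plexus-like cells, 55 genes and 5 members in all kept cells, 22 genes outside the class and 139 over the other classes. Counts limit the rarer members most: Steap1 had 15 and 31 UMIs in the libraries with inhibitors.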

Other observations

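Barcodes removed only for their mitochondrial share held the members at high levels. Among them Prlr was at 431 and 511 CPM without inhibitors and 881 and 878 CPM with, Kl at 523 and 875 CPM without and 1165 and 1525 CPM with, and Htr2c at 195 and 235 CPM without and 435 and 469 CPM with. Levels with inhibitors were above those without and the groups did not overlap for these 3 genes. The share of all genes that separated in these barcodes was not counted, so this is a description only. Clic6 had the same order (168 and 219 CPM without, 474 and 745 CPM with), whereas Ttr was 6.50% and 6.27% of UMIs without and 5.44% and 6.13% with, and Folr1 was higher without (215 and 279.6 CPM against 178 and 147 CPM). These barcodes come from all cell types and were not sorted into classes for these values.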
